A study of Mus musculus with 14 samples.

Results

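The clustered histone genes were taken as the 67 genes of the count tables, out of 31054 genes in all, whose symbol begins with Hist1h, Hist2h, Hist3h or Hist4h. The rule reads the symbol alone in all 14 libraries and uses no measured value, although the group was picked for description with earlier results of these data known. By the protein they encode they comprise 6 genes for the linker histone H1 and 18, 18, 12 and 13 genes for the core histones H2A, H2B, H3 and H4. In the GENCODE vM21 annotation of GRCm38 (mm10), 54 of them lie on chromosome 13 between bases 21715763 and 23934851, 10 on chromosome 3 between 96219865 and 96270132, and 2 on chromosome 11 between 58948920 and 58956830. Hist4h4 is the sole member on chromosome 6, from 136801553 to 136804415.

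The core histones form the spool on which DNA is wound, and H1 binds the DNA between spools. Genes of these clusters are known for being switched on together while DNA is copied, under the coactivator NPAT, and their mRNAs typically end in a short stem-loop, bound by the protein SLBP, in place of a poly(A) tail. Some of them are also known to give polyadenylated transcripts in cells that have left the cell cycle. The Atoh1 lineage of the hindbrain holds dividing precursors and the glutamatergic neurons that they produce, such as cerebellar granule cells and the neurons of the pontine nuclei, so both situations are present in one sort.

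Single cells that carried TdTomato were sorted and sequenced on the 10x Genomics platform (3′ kit, v3.1), which primes cDNA on poly(A) RNA and counts each captured molecule once by a unique molecular identifier (UMI). Control embryos were Atoh1 Cre/+; Rosa lsl-tdTomato/+ and mutant embryos, called Atoh1S193A/-, were Atoh1 Cre/S193A; Rosa lsl-tdTomato/+, all on C57BL/6J. The Cre allele takes the place of Atoh1, so controls also carried 1 functional copy only, and the reporter marks every cell that ever expressed Atoh1. Each of the 2 embryonic ages, E14.5 and E18.5, gave 3 control and 3 mutant hindbrains, with 1 embryo per library. Mutants were collected with littermate controls, and libraries of the same replicate number were taken as such a pair. The study lists a female control and a male mutant for E14.5 replicate 1, and the other embryonic pairs match in sex. At P5 there were 2 control libraries of dissected pontine nuclei, each pooled from many pups, and no mutant.

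After filtering, 80250 of 150188 barcodes were kept, with 3248 to 8726 cells per library, and the deposited libraries held 108239001 to 236964126 UMIs each. No pair of libraries shared more than 22 kept barcodes, at most 0.346% of the smaller library. The kept cells held 1474366063 UMIs, of which 3864723 fell on clustered histone genes. Hist1h2bq had no UMI, 3 members (Hist1h2ba, Hist1h2aa and Hist2h2aa2) had between 1 and 100, and 57 had over 1000. Levels are given in CPM, counts per 1000000 UMIs, from UMIs summed over the cells of a class in a library. As a molecule counts once whatever its length, CPM values of different genes were compared without a length correction. The kit primes on poly(A), so histone mRNA that ends in a stem-loop without a tail can go uncounted. Levels, ranks, shares and fold differences given here describe captured RNA only. The captured part of each member's mRNA was not measured and may differ between members and classes. The file headers of E14.5 control replicates 1 and 2 name another version of the counting software (Cell Ranger 3.1.0) than the other 12 (5.0.1). The S193A change was not readable from these counts, so the genotype labels were not checked by them.

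Cells were placed in classes from lists of other genes, with no histone gene in any of them. Cells with 5000 UMIs or more were thinned to 5000, and those with at least 15 UMIs on 40 genes of DNA replication were called S-range, the remaining cells with at least 10 UMIs on 40 genes of G2 and mitosis were called G2/M-range, and the remaining cells with at least 40 UMIs on 15 neuronal genes were called neuron-range. The 2785 shallower cells, between 57 and 980 per library, have no class but count among the kept cells in every share. The classes are ranges of a score, not cell types, and their limits were set after the score distributions had been seen, together with the histone sums by bin of the score. Between 92 and 639 cells per library lay within 3 UMIs of the S limit. Beyond the lists used, neuron-range cells of the embryonic libraries held 116 to 192 CPM of the glutamatergic markers Slc17a6 and Slc17a7 and 19.3 to 63.4 CPM of 4 inhibitory markers. S-range cells were not free of neuronal RNA: their neuron-list level was 15.5% of that in neuron-range cells at the median of the 12 embryonic libraries (range 7.70 to 19.2%).

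Most members carry the stem-loop in the annotation. The pattern searched spans 16 bases of the sense strand, with stem arms of 6 bases and a loop of 4, and reads GG, any 3 bases, TT, any base, T, any base, AG, any base, GCC. It was found in an annotated coding transcript of 44 of 67 members (65.7%) against 90 of 21834 other protein-coding genes (0.412%). The 7 forms found are shown because H4 genes have another stem than the rest, while H1, H2A, H2B and H3 genes share forms; loop bases are in capitals.
Hist1h1c, Hist1h1d, Hist1h1e, Hist1h2ap, Hist1h2ae, Hist3h2ba, Hist3h2a, Hist1h3b and 18 more: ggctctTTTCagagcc
Hist1h3c, Hist1h3e, Hist1h3f, Hist1h2bb, Hist1h2bk and Hist1h1t: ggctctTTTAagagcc
Hist2h2ac: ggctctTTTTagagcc
Hist1h3g: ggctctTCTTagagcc
Hist1h4d, Hist4h4 and 5 further H4 genes: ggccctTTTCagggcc
Hist1h4i and Hist2h4: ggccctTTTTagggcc
Hist1h4a: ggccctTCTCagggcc
All 10 H4 genes with the pattern had the stem ggccct, and the other 34 members had ggctct. The annotated transcript ran on for 3 to 4884 bases after the loop (median 91), and for over 100 bases in 22 members. AATAAA or ATTAAA, the signals for adding a poly(A) tail, stood in the last 50 annotated bases of 16 members. The 23 members with no match included 14 whose annotated transcripts were shorter than 420 bases, and no match says only that these letters are not in the annotated transcript.

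Many members are near-copies of one another, which bears on every count given here. Of the 90-base windows of each transcript, more than 50% also occurred in another gene for 28 members and more than 90% for 7, and reads that fit several genes equally are not counted. Hist1h2ap shared 92.4% of its windows, so its UMIs are uncertain. By contrast Hist1h1b, Hist1h1a, Hist2h4 and 3 other members shared none. In addition 7 members overlap another gene on their own strand, among them Hist1h1e, Hist3h2a and Hist2h3c1.

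Over the 12 embryonic libraries, a few members made up most of the histone signal in each class. In S-range cells the mean level was 100 CPM or more for 13 members, 10 to 100 CPM for 26, 1 to 10 CPM for 19 and under 1 CPM for 9, and the leading 10 held 82.0% of the sum. In neuron-range cells the corresponding numbers were 4, 13, 21 and 29 members, and the leading 10 held 89.2%. Both rosters of 10 held Hist1h1e, Hist1h1c, Hist1h4d, Hist1h2ap and Hist1h2ae, and their other members differed. The highest mean levels in S-range cells were those of Hist1h1b (an H1 gene, chr13:21779883-21780625, minus strand) at 1758 CPM, Hist1h2ap (H2A, chr13:21833026-21833507, minus) at 1432 CPM, Hist1h1e (H1, chr13:23620629-23622558, minus) at 748 CPM and Hist1h2ae (H2A, chr13:23570517-23571220, minus) at 743 CPM. This order pools both ages: at E14.5 alone Hist1h2ap (1670 CPM) stood above Hist1h1b (1243 CPM) and Hist1h2ae (872 CPM) above Hist1h1e (439 CPM). The first 4 were followed by Hist1h4d at 416 CPM, Hist1h1a at 195, Hist1h1d at 148, Hist1h3c at 143, Hist1h1c at 135 and Hist2h2ac at 124 CPM. In neuron-range cells the order was led by a pair of neighbours on chromosome 11, the H2B gene Hist3h2ba (chr11:58948920-58949533, plus) at 618 CPM and the H2A gene Hist3h2a (chr11:58954685-58956830, plus) at 292 CPM. Next came Hist1h1e at 138 CPM, Hist1h2bc (H2B, chr13:23684199-23692908, plus) at 132 CPM and Hist1h1c at 87.6 CPM, although at E14.5 alone Hist1h2bc (94.3 CPM) stood above Hist1h1e (65.8 CPM), and Hist1h4d, Hist1h2ap, Hist1h2ae, Hist1h4i and Hist1h2ac lay between 62.4 and 24.2 CPM. Hist3h2ba was the highest member of the neuron-range sum in all 14 libraries, with 26.2 to 52.6% of it.

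**Figure D1:**
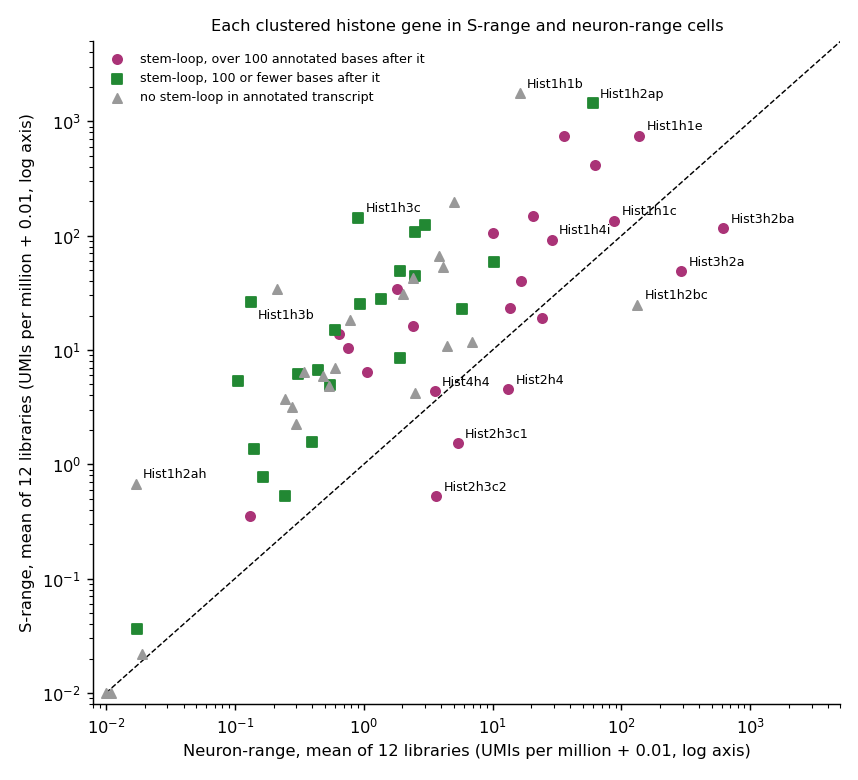
Mean CPM of each clustered histone gene in S-range cells (vertical, log axis) against neuron-range cells (horizontal, log axis) over the 12 embryonic libraries, with markers for members that have a stem-loop followed by over 100 annotated bases, by 100 or fewer, or no stem-loop; a small constant is added to each value so that values of 0 appear on the log axes. Hist3h2ba (116 against 618 CPM) and Hist3h2a (48.6 against 292 CPM) sit below the diagonal, and Hist1h1b (1758 against 16.2 CPM) sits far above it.

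The first comparison asked how clustered histone RNA differed between S-range and neuron-range cells. The summed level was higher in S-range cells of every embryonic library. At E14.5 it was 4940, 3302 and 6649 CPM in controls and 8399, 5354 and 7364 CPM in mutants in S-range cells, against 1505, 1550 and 1522 CPM and 1462, 1807 and 1491 CPM in neuron-range cells. The lowest S-range library thus lay above the highest neuron-range library, and the S-range values were the more scattered (6001 ± 1836 against 1556 ± 126 CPM, mean ± SD, n = 6). The ratio was 3.70-fold (log2 1.89 ± 0.22, SE), with p = 0.03125 in an exact sign-flip test over 6 libraries, the smallest it can give. At E18.5 the ratio was 4.60-fold (log2 2.20 ± 0.14; 8240 ± 1868 against 1758 ± 92.3 CPM, n = 6), again higher in 6 of 6 libraries with an exact p of 0.03125. Controls alone gave log2 1.64 and 2.18 at E14.5 and E18.5, where the exact test over 3 libraries cannot go below p = 0.25.

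**Figure D2:**
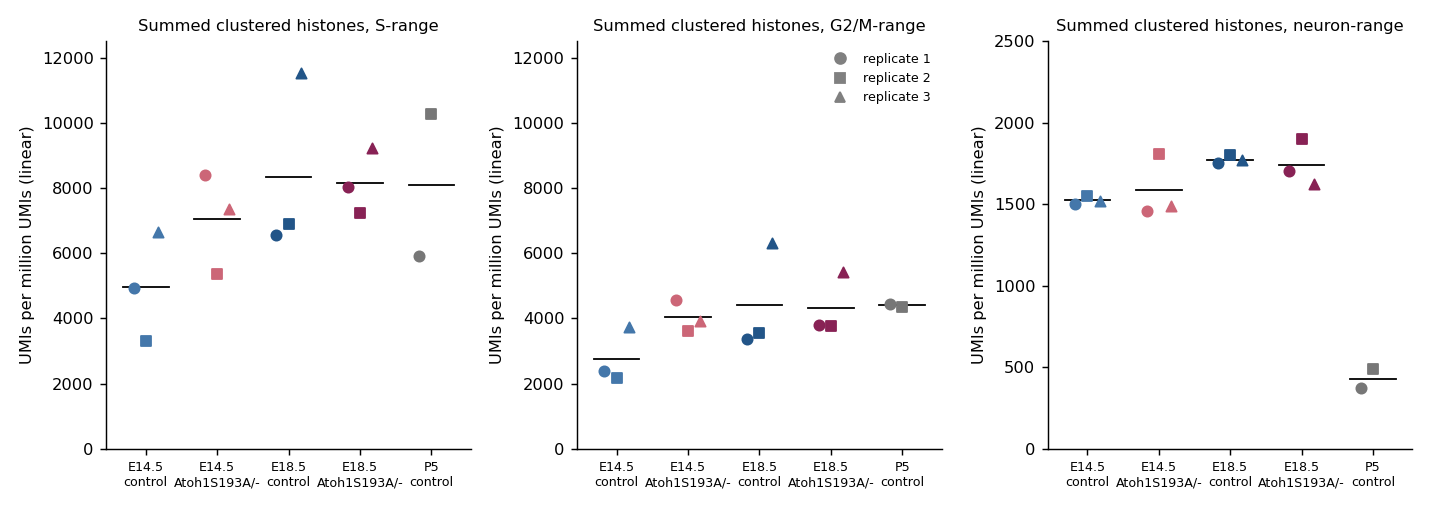
Summed CPM of the 67 clustered histone genes in each library, in S-range, G2/M-range and neuron-range cells by panel; each point is a library, and the bar is the group mean. Embryonic S-range values run from 3302 to 11523 CPM and embryonic neuron-range values from 1462 to 1899 CPM.

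Counted gene by gene, most members were higher in S-range cells and a small set was lower. At E14.5, 60 members passed the low-count filter (edgeR quasi-likelihood test with the library as a block, false discovery rate, FDR, under 0.05 and log2 change beyond 0.25), of which 50 were higher and 6 lower, where 36.0% of the 15040 genes tested were higher and 39.8% lower. At E18.5, 54 of 62 tested members were higher and 6 lower, against 37.7% and 39.2% of all genes tested. The median log2 difference over the tested members was 3.29 at E14.5 and 3.74 at E18.5, where the medians over all genes were -0.05 and -0.02. These counts and medians include members that did not pass the filter in each class alone. At E14.5 these were Hist1h3b, Hist1h2af, Hist1h3g and Hist1h4f (not in neuron-range cells), Hist2h3c2 (not in S-range cells) and Hist1h2ah (in neither). At E18.5 Hist1h3b, Hist1h3g, Hist1h3h, Hist1h4f and Hist1h2ah did not pass in neuron-range cells. For members let in by a single class, the filter itself favours a call toward that class. The members left untested at both stages were Hist1h1t, Hist1h2aa, Hist1h2ba, Hist1h2bq and Hist2h2aa2, and Hist1h2ao and Hist1h4m were also untested at E14.5. The members tested but not called were Hist1h4j, Hist1h2br, Hist1h2ac and Hist1h1c at E14.5 and Hist1h2ac and Hist4h4 at E18.5.

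Among the higher members that passed the low-count filter in each class at E14.5, the widest separation there was seen for the H3 gene Hist1h3c. After it came, at far higher levels, the linker gene Hist1h1b. In S-range cells at E14.5, Hist1h3c (chr13:23744973-23745602, minus) stood at 81.4, 87.2 and 94.2 CPM in controls and 107, 184 and 112 CPM in mutants, and in neuron-range cells at 0.182, 0.247 and 0.230 CPM and 0.565, 0.263 and 0.755 CPM. No library came near the other class, and the log2 difference was 8.34 ± 0.23 (SE, FDR = 1.39e-09). At E18.5 its difference was 7.16 ± 0.11, with 176 ± 60.0 against 1.42 ± 0.311 CPM (mean ± SD, n = 6). Hist1h1b had 496, 800 and 1937 CPM in controls and 567, 1544 and 2116 CPM in mutants in S-range cells at E14.5, against 3.34 to 12.4 CPM in neuron-range cells. Its levels were low in replicate 1 of both genotypes and high in replicate 3, yet the ratio between classes hardly varied, and the log2 difference was 7.56 ± 0.09 (FDR = 3.48e-11) at E14.5 and 6.70 ± 0.08 at E18.5. The H3 gene Hist1h3b and the H2A gene Hist1h2af were also called higher at both ages, at lower levels of 23.6 and 24.9 CPM in S-range cells at E14.5. Hist1h3b did not pass the low-count filter in neuron-range cells alone at either age, nor did Hist1h2af at E14.5. They entered the class test through S-range cells, so no fold is given for them there. At E18.5 Hist1h2af differed by log2 7.46 ± 0.08. Hist1h2ah had 0 or 1 UMI in each of the 6 E14.5 neuron-range sums, so no fold is given for it.

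The abundant members given next differed less between classes than Hist1h3c and Hist1h1b. Hist1h2ap and Hist1h2ae were higher in S-range cells by log2 4.99 ± 0.10 and 4.74 ± 0.07 at E14.5. Both lay above the median log2 difference of 3.29 over the members tested at E14.5. Whether their neuron-range UMIs came from RNA of cycling cells was not tested. For Hist1h1e the difference was 2.78 ± 0.10 at E14.5 and 2.56 ± 0.06 at E18.5, for Hist1h4d 2.85 ± 0.09 at E14.5, and for the H4 gene Hist1h4i (chr13:22040636-22041362, minus) 2.08 ± 0.10 at E14.5. The linker gene Hist1h1c (chr13:23738808-23740367, plus) had 76.9 ± 30.4 against 60.6 ± 6.79 CPM at E14.5 (log2 0.35 ± 0.22, FDR = 0.171) and overlapped between classes, but was higher at E18.5 with 193 ± 31.3 against 115 ± 14.9 CPM (0.97 ± 0.10, FDR = 2.59e-06).

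Lower in S-range cells at both stages were Hist3h2ba, Hist3h2a, Hist1h2bc, Hist2h4, Hist2h3c1 and Hist2h3c2, of which 4 have a poly(A) signal in the last 50 annotated bases. In neuron-range cells Hist3h2ba stood at 706, 815 and 712 CPM in E14.5 controls, 646, 815 and 668 CPM in E14.5 mutants, 546, 519 and 465 CPM in E18.5 controls and 515, 560 and 450 CPM in E18.5 mutants. In S-range cells it stood at 114, 143 and 139 CPM, 103, 134 and 110 CPM, 106, 97.7 and 112 CPM, and 105, 109 and 118 CPM in the same order. All neuron-range libraries lay above all S-range libraries, by log2 2.48 (S-range minus neuron-range -2.48 ± 0.05, FDR = 2.13e-10) at E14.5 and by 2.01 (-2.01 ± 0.06) at E18.5. Its neighbour Hist3h2a followed the same order, with 53.4 ± 7.87 against 310 ± 34.1 CPM at E14.5 (-2.46 ± 0.08) and 43.8 ± 9.28 against 275 ± 25.3 CPM at E18.5 (-2.44 ± 0.11). Hist1h2bc had 20.5 ± 2.95 against 94.3 ± 16.7 CPM at E14.5 (-2.11 ± 0.08) and 29.4 ± 4.77 against 170 ± 34.9 CPM at E18.5 (-2.30 ± 0.13). The chromosome 3 members were much rarer: the H4 gene Hist2h4 (chr3:96261682-96263311, minus) had 3.64 against 11.9 CPM at E14.5 (-1.61 ± 0.12). The H3 genes Hist2h3c2 and Hist2h3c1 (-1.25 ± 0.22) lay under 4 CPM in both classes at that stage, with 62.0% and 100% of their windows shared with other genes. Hist2h3c2 did not pass the low-count filter in E14.5 S-range cells alone and entered the class test through neuron-range cells, so no fold is given for it.

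The shares of cells with a UMI, in cells thinned to 5000 UMIs, gave the same order. Hist3h2ba was detected in 90.6% of neuron-range cells at the median of the 12 libraries (range 83.3 to 95.8%) and in 40.4% of S-range cells (34.7 to 50%). Hist1h1b was detected in 89.8% of S-range cells (71.3 to 92.8%) and 6.13% of neuron-range cells (1.48 to 10.8%). As background in the neuron-range cells, the S-phase chaperone gene Asf1b stood at 1.33% of its S-range level (0.534 to 2.81%), and Hist1h1b and Hist1h3c stood at 0.806% (0.475 to 1.28%) and 0.570% of theirs, at or below that background, so no expression in neurons is read from them. In the other direction, the S-range level of Hist3h2ba was 19.1% of its neuron-range level (16.0 to 26.1%), that of Hist3h2a 16.7% and that of Hist1h2bc 19.9%. Beside these stood 15.5% for the neuron list, 13.4% for Stmn2 (3.46 to 17.8%) and 35.4% for Snap25. Whether the S-range UMIs of Hist3h2ba, Hist3h2a and Hist1h2bc came from neuronal RNA in S-range cells was not tested.

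Members with over 100 annotated bases after the stem-loop held most of the neuron-range sum, chiefly through Hist3h2ba and Hist3h2a. The 100-base boundary was drawn after the values were seen, so what follows is description. At E14.5 the 21 tested members with a stem-loop and over 100 bases after it had a median log2 difference between S-range and neuron-range cells of 2.08 (14 higher and 5 lower, where 36.0% and 39.8% of all genes were) and held 86.5% of the neuron-range sum. The 19 tested members with 100 or fewer bases after it had a median of 4.52, all 19 were higher in S-range cells, and they held 5.22% of the neuron-range sum. The 20 members with no stem-loop in the annotated transcript had a median of 4.01 (17 higher, 1 lower) and 8.26% of the sum. At E18.5 the respective medians were 1.54, 4.40 and 4.17, and the shares of the neuron-range sum 80.3, 6.17 and 13.5%. Members with a poly(A) signal (14 tested) had a median of 0.70 at E14.5 and 0.95 at E18.5, beside 4.03 and 4.20 for members without one. All these medians and counts include the members, named above, that did not pass the low-count filter in each class alone. By cluster, the 2 Hist3 genes held 66.6% of the neuron-range sum at E14.5 and 44.5% at E18.5 but 3.33% of the S-range sum at E14.5. By protein, H2B genes held 55.0% of the E14.5 neuron-range sum and 6.92% of the S-range sum, whereas H1 genes held 9.65% and 34.9%.

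The second comparison set S-range cells against G2/M-range cells of the same library. These are score ranges and not clean phases, as 53.3 to 72.0% of the S-range cells in embryonic libraries also reached the G2/M limit. The summed level in G2/M-range cells was 2396, 2156 and 3727 CPM in E14.5 controls and 4562, 3625 and 3932 CPM in E14.5 mutants, below the S-range value of the same library in 6 of 6. The S-range sum was 1.75-fold higher at E14.5 (log2 0.81 ± 0.07) and 1.91-fold higher at E18.5 (0.93 ± 0.04), each with p = 0.03125 in the exact sign-flip test, the smallest possible. Gene by gene, 34 of 56 tested members were higher in S-range cells and 3 lower at E14.5, against 18.0% and 17.2% of all genes tested, and 46 of 60 were higher and 4 lower at E18.5, against 18.9% and 16.5%. Without the library as a block the E14.5 count was 4 higher and 3 lower, against 11.7% and 11.1% of all genes, and at E18.5 31 higher and 4 lower, against 16.7% and 14.3%. At class limits 1.5 times higher the E14.5 count was 16 of 57 higher and 6 lower, against 19.9% and 16.7%.

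The linker gene Hist1h1a (chr13:23763666-23764406, plus) had the widest phase difference among the members called higher. It stood at 151 ± 67.9 CPM in S-range and 49.2 ± 24.8 CPM in G2/M-range cells at E14.5 (log2 1.65 ± 0.06, FDR = 2.23e-11), and at 239 ± 20.4 against 70.0 ± 14.7 CPM at E18.5 (1.80 ± 0.05). After it came the H3 gene Hist1h3a (1.26 ± 0.11 at E14.5), Hist1h1b (1.23 ± 0.04), Hist1h2ae (1.16 ± 0.06) and Hist1h2ap (1.14 ± 0.05), and the same 5 led at E18.5. Hist1h3c, so wide apart between S-range and neuron-range cells, differed little by phase at E14.5, with 111 ± 37.6 against 94.0 ± 37.4 CPM (0.27 ± 0.05).

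Hist1h2bc ran against the others in the cycle. Its level in S-range cells was 21.7, 15.2 and 21.0 CPM in E14.5 controls and 22.8, 19.2 and 23.2 CPM in E14.5 mutants, and in G2/M-range cells 99.2, 74.4 and 77.3 CPM and 68.5, 102 and 92.1 CPM. Every G2/M-range library lay above every S-range library, and the log2 difference (S-range minus G2/M-range) was -2.0 ± 0.09 (FDR = 1.45e-10) at E14.5 and -2.0 ± 0.06 at E18.5. Its G2/M-range level (85.6 ± 14.1 CPM at E14.5) was near its neuron-range level (94.3 ± 16.7 CPM), whereas that of Hist3h2ba (164 ± 19.1 against 727 ± 72.4 CPM) was not. Also lower in S-range cells were Hist3h2ba (-0.38 ± 0.03 and -0.50 ± 0.02 at the 2 stages) and Hist2h3c1 (-1.37 ± 0.17 and -1.02 ± 0.17), and at E18.5 Hist3h2a (-0.53 ± 0.04). In the annotation Hist1h2bc has a transcript of 1156 bases with no stem-loop.

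Within the cells above the S limit, histone RNA varied with the G2/M list. Where the G2/M list had 0 to 2 UMIs the summed level was 1655 CPM at E14.5 (median of 6 libraries, range 986 to 1878), at 3 to 9 UMIs 2710 CPM (1581 to 3379), at 10 to 39 UMIs 7694 CPM (4073 to 11584) and at 40 or more 8471 CPM (4507 to 12961). The lowest of these bins was thus close to the neuron-range sum, and the 2 highest overlapped. At E18.5 the 4 medians were 2267, 3140, 8742 and 9873 CPM. Cells above the S limit therefore included a part with little clustered histone RNA, and the share of S-range cells with at least 10 UMIs on the G2/M list was 53.3, 62.4 and 62.6% in E14.5 controls, 55.8, 58.8 and 60.3% in E14.5 mutants and 64.1 to 72.0% at E18.5. The G2/M-range class was mixed too. Below the S limit the E14.5 median was 1372 CPM at 10 to 39 UMIs and 4431 CPM at 40 or more (2589 to 5998). At E18.5 these medians were 2067 and 4246 CPM.

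**Figure D3:**
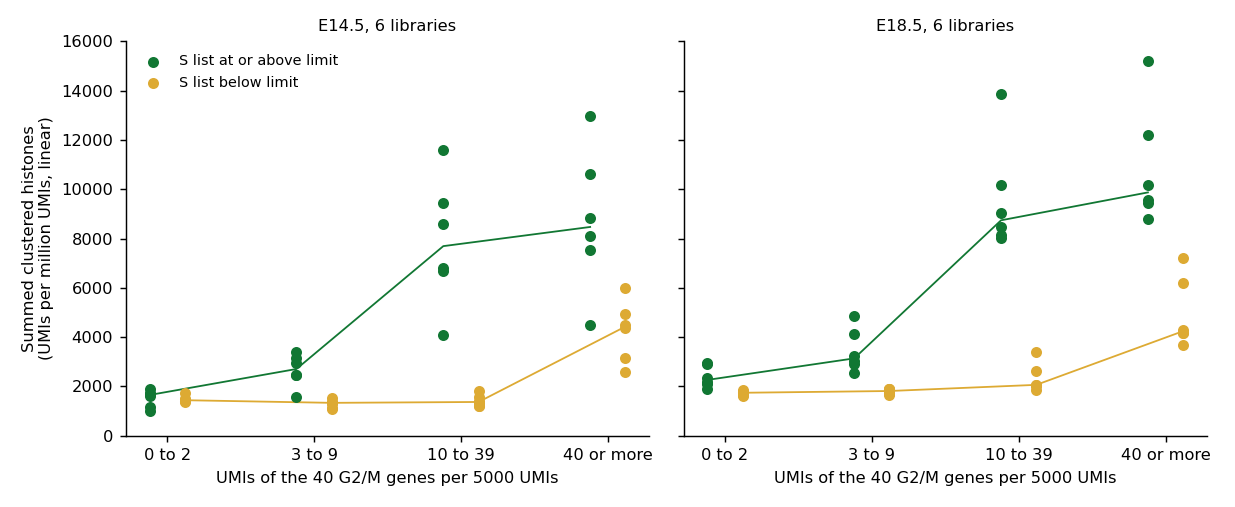
Summed CPM of clustered histone genes by bin of the G2/M list (UMIs after thinning), for cells above and below the S limit at E14.5 and E18.5; points are libraries and the line joins their medians. Above the S limit the E14.5 medians are 1655, 2710, 7694 and 8471 CPM. Below it the first 3 bins stay between 1336 and 1444 CPM, and the bin of 40 or more UMIs has 4431 CPM.

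Libraries of the same class differed from one another in single members more than in the sum. Over the 12 embryonic libraries the highest S-range value was 5.19 times the lowest at the median of the 39 members at 10 CPM or more, with a range of 1.46 to 27.6 times, and in neuron-range cells 3.11 times over 17 members. Hist1h2ap stood at 2004 and 4605 CPM in the control and mutant of E14.5 replicate 1, at 218 and 191 CPM in replicate 2 and at 1368 and 1636 CPM in replicate 3. Hist1h1b showed another order, with 496 and 567 CPM in replicate 1, 800 and 1544 CPM in replicate 2 and 1937 and 2116 CPM in replicate 3. For each gene the replicates thus fell in the same order in both genotypes, although littermates could differ by over 2 times, and Hist1h2ap made up between 3.56 and 54.8% of the S-range sum over the 14 libraries. At E18.5 replicate 3, Hist1h2ap had 2720 CPM in the control and 728 CPM in the mutant, so there the littermates differed. Leaving Hist1h2ap out of the sum kept the class difference at log2 1.48 at E14.5 and 2.04 at E18.5. Litter, collection and sequencing run cannot be told apart in these libraries.

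**Figure D4:**
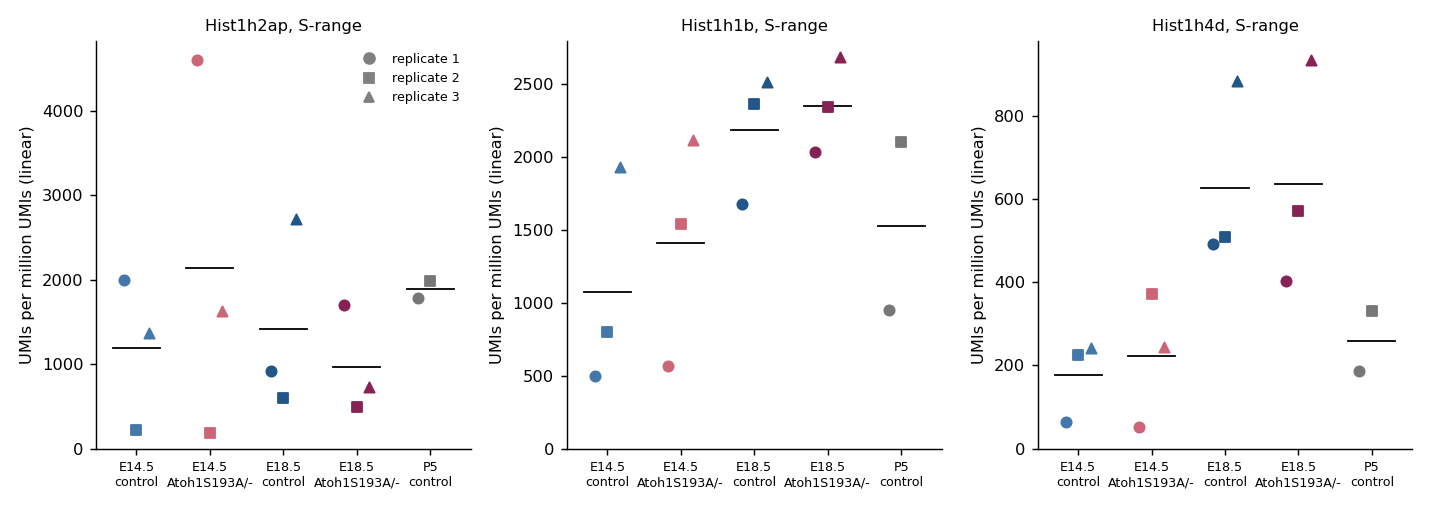
CPM of Hist1h2ap, Hist1h1b and Hist1h4d in S-range cells of each library, with marker shape giving the replicate number and the bar the group mean. Hist1h2ap runs from 191 to 4605 CPM among the E14.5 libraries, with replicate 2 lowest in both genotypes.

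The third comparison concerned genotype. Over all kept cells at E14.5, summed clustered histone RNA stood at 1987, 1658 and 2269 CPM in controls and 3348, 2247 and 2852 CPM in mutants, so every mutant lay above the control of its number, by 1.68, 1.35 and 1.26 times, although the groups overlapped. The log2 difference was 0.51 ± 0.21 (exact permutation p = 0.2, smallest possible 0.1). A sum over all cells cannot tell more cycling cells from more RNA per cell. S-range cells made up 11.8, 5.53 and 10.7% of the kept cells in controls and 19.9, 9.20 and 16.7% in the mutants of the same number, and neuron-range cells made up 64.7, 83.9 and 72.3% in controls and 49.5, 73.5 and 52.7% in mutants. Within S-range cells the mutant-to-control ratio was 1.70, 1.62 and 1.11 (log2 0.54 ± 0.35, exact permutation p = 0.2; 0.27 without control replicate 2), and within neuron-range cells it was 0.971, 1.17 and 0.980 (0.05 ± 0.10, p = 1). At E18.5 the ratios over all kept cells were 1.17, 1.09 and 0.802, those in S-range cells 1.22, 1.05 and 0.800 and those in neuron-range cells 0.972, 1.06 and 0.917, with log2 differences of 0.01 ± 0.14, 0.01 ± 0.28 and -0.03 ± 0.07.

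In edgeR without pairing, no member was called between genotypes in any of 6 tests (all kept cells, S-range and neuron-range at either age), and few genes of any kind were. In these tests 0.0% of all genes tested were called at E14.5, in all kept cells and in either class, and at E18.5 0.0% in all kept cells and neuron-range cells and 0.229% in S-range cells. At an unadjusted p under 0.05 there were 14 of 63, 6 of 59 and 3 of 56 members at E14.5 in all kept, S-range and neuron-range cells, against 11.9%, 6.73% and 1.59% of all genes, and 0 of 63, 0 of 62 and 3 of 57 at E18.5, against 2.01%, 6.11% and 1.37%. DESeq2 without pairing called 5 members higher in mutants over all kept cells at E14.5 (Hist1h2bl, Hist1h2bm, Hist1h2bh, Hist1h3c and Hist1h3a), where it called 2.08% of all genes higher, and 0 in the other 5 tests. In all kept cells at E14.5, 14 members had all mutants above all controls, against 12.1% of all genes, and the median log2 difference over the 63 tested members was 0.71, with 55 positive and 8 negative, beside 0.01 over all genes. Other cell cycle genes moved the same way, with medians of 0.50 over the S list and 0.55 over the G2/M list.

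When edgeR compared littermates within pairs (a block for the litter), it called 27 members higher and 3 lower in mutants over all kept cells at E14.5, where 8.86% of all genes were higher and 5.02% lower. Hist1h3b (log2 1.23), Hist1h3f (1.21), Hist1h3c (1.20) and Hist1h2ai (1.20) had the largest differences, and Hist1h1b was higher by 1.06 (FDR = 0.0123). Hist1h3c stood at 16.7, 9.18 and 17.5 CPM in controls and 36.5, 30.7 and 32.6 CPM in mutants, so that all mutants lay above all controls. The 3 members lower in mutants were Hist3h2ba (-0.41, FDR = 0.0158), Hist1h2ac (-0.38) and Hist3h2a (-0.37, FDR = 0.0499). Hist3h2ba had 511, 708 and 558 CPM in controls and 378, 631 and 401 CPM in mutants, which overlap across litters but are lower in the mutant of each pair. Hist3h2ba and Hist3h2a lead the neuron-range sum, and the share of neuron-range cells fell with them in every pair, as given above; its part in these calls was not tested. Controls 1 and 2 at E14.5 were counted with the other Cell Ranger version than all mutants, so version and genotype cannot be told apart in those pairs, and the pair of a single version, number 3, had the smallest mutant-to-control ratio of the sum in all kept and in S-range cells. In pair 1 sex and genotype cannot be told apart either.

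In S-range cells at E14.5 the blocked test called 3 members higher, Hist1h3f (0.71, FDR = 0.027), Hist1h3b (0.58, FDR = 0.0409) and Hist1h2ae (0.42, FDR = 0.0498), and Hist3h2a lower (-0.39, FDR = 0.0466), against 1.88% and 1.69% of all genes tested. Hist3h2a stood at 58.2, 59.9 and 60.7 CPM in controls and 46.5, 53.9 and 41.5 CPM in mutants, without overlap. The neuron list moved with it in the same cells, at 2621, 2960 and 3278 CPM in controls and 1829, 1559 and 2144 CPM in mutants, while the S list stood at 5887 to 6330 CPM in these 6 libraries. The part of the neuron list in the Hist3h2a difference was not tested. The blocked test called no member in E14.5 neuron-range cells, where it called 0.0% of all genes, or at E18.5 in all kept, S-range and neuron-range cells, where it called 0.215%, 1.3% and 0.0385%; the unadjusted and DESeq2 counts for these tests are those above. A change of the genotype difference between E14.5 and E18.5 was not called for any member in S-range or neuron-range cells (edgeR interaction, 0.0% of all genes; unadjusted p under 0.05 for 2 of 63 and 2 of 59 members, against 6.54% and 1.44% of all genes; DESeq2 called 0).

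The fourth comparison set E18.5 controls against E14.5 controls. The summed level in S-range cells was 6557, 6899 and 11523 CPM at E18.5 and 4940, 3302 and 6649 CPM at E14.5, with overlap (log2 0.75 ± 0.39, exact permutation p = 0.2, smallest possible 0.1). In neuron-range cells the sums were tight and apart, 1753, 1800 and 1772 CPM against 1505, 1550 and 1522 CPM (0.22 ± 0.02, exact permutation p = 0.1, the smallest possible). Gene by gene, 22 of 62 tested members were higher at E18.5 and 3 lower in S-range cells, against 19.4% and 20% of all genes, and 24 of 56 were higher and 4 lower in neuron-range cells, against 21.6% and 23.6%. The S-range count was 14 without E14.5 control replicate 1 (16.5% of all genes), 13 without E14.5 control replicate 2 (15.9%) and 11 without E18.5 control replicate 3 (14.1%). With the libraries of 1 Cell Ranger version alone, which leaves 1 E14.5 control that is assumed to vary like the E18.5 group, 4 members were higher in S-range and 13 in neuron-range cells, against 11.4% and 12% of all genes. Stage and litter cannot be told apart, as the ages came from different litters. Neuron-range cells of the 2 ages may also hold different mixes of neuron types, and the part of this was not tested.

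The small neuron-range rise hid opposite movements. Hist3h2ba fell from 706, 815 and 712 CPM at E14.5 to 546, 519 and 465 CPM at E18.5, without overlap (log2 -0.72 ± 0.10, FDR = 0.000624), and Hist3h2a was also lower (-0.35 ± 0.09, FDR = 0.0105). Against this, Hist1h1e stood at 35.5, 51.3 and 72.7 CPM at E14.5 and 187, 223 and 202 CPM at E18.5 (1.75 ± 0.24, FDR = 0.000768). Hist1h1c was 119 ± 5.6 against 60.0 ± 6.71 CPM (0.82 ± 0.09), and Hist1h2bc had 177, 200 and 126 CPM against 104, 66.4 and 112 CPM (0.65 ± 0.22, FDR = 0.0379). The largest log2 differences upward were those of low members, Hist1h3c (2.31 ± 0.28, 1.26 against 0.219 CPM), Hist1h2ak (2.13 ± 0.56, but 1.14 without E18.5 control replicate 3, which had 13.9 CPM), the H2A gene Hist2h2ac (1.88 ± 0.20, 4.48 against 1.09 CPM) and Hist1h1b (1.79 ± 0.39, 23.5 against 5.90 CPM). Beside them, 26 of the 40 G2/M-list genes were also higher at E18.5 in neuron-range cells and 0 lower. The S list went both ways, with 11 of 40 higher and 8 lower. Hist1h3c and Hist1h1b lay at or below the background levels given above. The part of RNA from cycling cells in these stage differences was not tested. Also lower was Hist1h4j (-0.55 ± 0.19), under 3 CPM. Hist1h3h counts among the members called lower, from 0.396 CPM in E14.5 controls. It did not pass the low-count filter in E18.5 neuron-range cells alone, so no fold is given for it.

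In S-range cells the H4 gene Hist1h4d (chr13:23581598-23582735, plus) had 491, 508 and 882 CPM at E18.5 and 63.9, 224 and 242 CPM at E14.5, without overlap (log2 1.79 ± 0.45, FDR = 0.0137). Hist1h2ak had the largest difference (2.27 ± 0.68, FDR = 0.0272), which drew on 254 CPM in E18.5 control replicate 3 where the other E18.5 controls had 46.9 and 45.4 CPM, and was 0.92 without that library. Hist1h4k, Hist1h4f and Hist1h2ai, all under 10 CPM, were higher by 1.53 to 1.79. Hist1h4f stood at 1.72 against 0.593 CPM, so its difference rests on few UMIs. Hist1h1e was 1033 against 383 CPM (1.39 ± 0.37, FDR = 0.0176), whereas Hist1h1b, with overlapping groups, was not called (0.97 ± 0.44, FDR = 0.108). Lower at E18.5 were the H4 gene Hist1h4i, with 83.0, 77.4 and 54.2 against 112, 119 and 111 CPM (-0.70 ± 0.13, FDR = 0.00365), Hist3h2a (-0.56 ± 0.11) and Hist3h2ba (-0.36 ± 0.11).

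**Figure D5:**
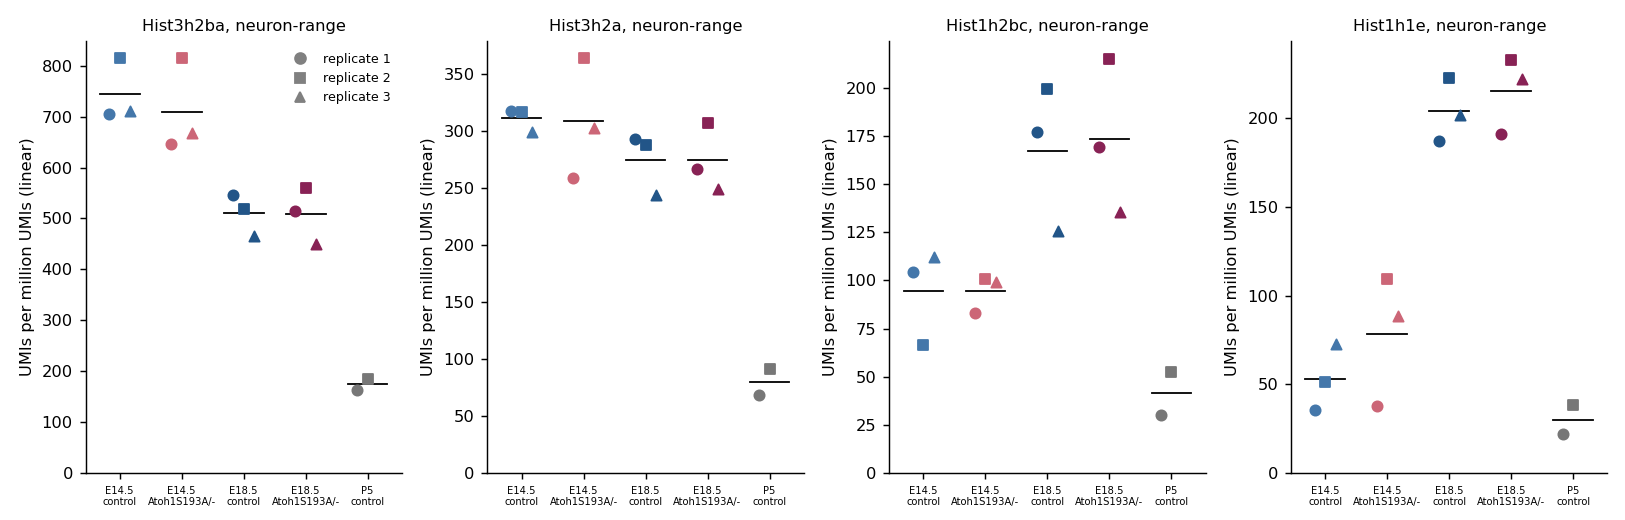
CPM of Hist3h2ba, Hist3h2a, Hist1h2bc and Hist1h1e in neuron-range cells of each library by stage and genotype, with marker shape giving the replicate number and the bar the group mean. Hist3h2ba stands at 706 to 815 CPM in E14.5 controls, at 465 to 546 CPM in E18.5 controls and at 164 and 185 CPM at P5. Hist1h1e is 35.5 to 72.7, 187 to 223, and 22.1 and 38.1 CPM in the same groups. The P5 libraries are of dissected pontine nuclei and the embryonic ones of hindbrain.

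At P5 only 2 control libraries were present, from another tissue piece, so their values stand beside the embryonic ones without a test. The neuron-range sum was 373 and 487 CPM over 5904 and 3773 cells, below the 1462 CPM of the lowest embryonic library. Hist3h2ba remained the highest member there at 164 and 185 CPM, Hist3h2a had 68.1 and 91.5 CPM, Hist1h2bc 30.2 and 52.5 CPM and Hist1h1e 22.1 and 38.1 CPM. The S-range sums, 5907 and 10272 CPM, lay in the embryonic range, but came from 234 and 325 cells that carried other markers than embryonic S-range cells. Their microglia list (C1qa, Csf1r and 4 others) stood at 8965 and 3312 CPM, where embryonic S-range cells had at most 21.2 CPM. Their astroglia list stood at 3819 and 1805 CPM, and its level in embryonic S-range cells is not given here. In G2/M-range cells Hist1h2bc had 452 and 441 CPM, above the 144 CPM of the highest embryonic library. Those values come from 134 and 127 cells whose other markers are not given here, so cell type and age cannot be told apart.

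Genes outside the clusters that process or escort histones were mostly higher in S-range than in neuron-range cells. Of 17 genes for histone mRNA supply and processing, 12 were higher and 1 lower in S-range than in neuron-range cells at E14.5 (36.0% and 39.8% of all genes), and 13 and 1 at E18.5 (37.7% and 39.2%). Against G2/M-range cells 8 were higher and 1 lower at E14.5 (18.0% and 17.2% of all genes), and 7 and 1 at E18.5 (18.9% and 16.5%). At E14.5, Slbp, which encodes the stem-loop binding protein, had 284 against 74.2 CPM (log2 2.02 ± 0.05), Casp8ap2, a partner of NPAT, 154 against 45.8 CPM (1.83 ± 0.05), the exonuclease gene Eri1 65.5 against 26.2 CPM (1.40 ± 0.05) and Npat 28.7 against 8.25 CPM (1.88 ± 0.07). Slbp was also higher in S-range than in G2/M-range cells, by 1.75 ± 0.04 at E14.5 and 1.81 ± 0.03 at E18.5. The gene lower in S-range than in neuron-range cells at both stages was Lsm11, for a component of the U7 snRNP that cuts histone mRNA.

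Of 18 histone chaperone genes, 16 were higher and 0 lower in S-range than in neuron-range cells at each stage (36.0% and 39.8% of all genes at E14.5, 37.7% and 39.2% at E18.5). Against G2/M-range cells 12 were higher and 0 lower at E14.5 and 12 and 1 at E18.5 (18.0% and 17.2%, and 18.9% and 16.5%, of all genes). The 4 with the smallest FDR at E14.5 were Hat1, a histone acetyltransferase (179 against 18.3 CPM, log2 3.37 ± 0.05), the CAF-1 subunit genes Chaf1a (86.5 against 2.81 CPM, 5.03 ± 0.08) and Chaf1b (111 against 6.62 CPM, 4.14 ± 0.07), and Nasp (972 against 207 CPM, 2.31 ± 0.04). The 11 replacement histone genes, which lie outside the clusters and are known for polyadenylated mRNAs, showed another pattern of counts: 7 were higher and 1 lower than in neuron-range cells at E14.5, and 0 were higher and 4 lower in S-range than in G2/M-range cells at either stage, beside the same shares of all genes. These 4 were Cenpa (154.9 against 758 CPM at E14.5, -2.28 ± 0.04), for the centromeric H3, and H1fx (-0.57 ± 0.03), H2afx (-0.77 ± 0.05) and H2afv (-0.40 ± 0.03). In S-range cells of E18.5 against E14.5 controls, where 19.4% of all genes were higher and 20% lower, 0 replacement genes were higher and 6 lower, 2 chaperone genes were higher and 5 lower, among them Asf1b (-0.72 ± 0.09), and 3 supply genes were higher and 2 lower. EdgeR called no gene of the 3 lists between genotypes without pairing, where it called 0.0% of all genes, or 0.229% in E18.5 S-range cells. With so few calls of any kind, this says nothing particular about the lists. The blocked test is not given for them.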

How the data were processed

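Each library is a 10x Genomics matrix of raw UMI counts deposited by the authors, made with Cell Ranger (5.0.1 in the submitters' notes, 3.1.0 in the headers of 2 files) on mm10 with a WPRE sequence added; reads fitting several genes equally are not counted. Cells with at least 1000 genes and under 5% mitochondrial UMIs were kept, and the top 7.5% of doublet scores per library (Scrublet in scanpy 1.11.5) were removed; the study used age-dependent limits. Counts were summed per library and class and tested with edgeR 4.0.16 (R 4.3.3; TMM, filterByExpr, glmQLFTest, Benjamini-Hochberg over all genes tested), with a call at FDR under 0.05 and log2 change beyond 0.25; the test was checked on simulated counts. DESeq2 1.42.0 was an alternative. Library was a block in class and phase comparisons. The labels' protocol says that each mutant was collected with a littermate control, without naming litters per sample; libraries of the same number were taken as pairs, and their deviations correlated in every pair (Pearson r 0.34 to 0.73 across genes), so blocked genotype values are given beside the unblocked ones. Summed levels were tested on log2 CPM, exactly and two-sided. Intervals and spreads are between libraries; each embryonic library is 1 embryo.

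Named were the 10 members with the highest mean CPM in S-range cells, the 10 highest in neuron-range cells, and up to 5 called members per direction and comparison with the largest change; pathway lists are given by counts with up to 4 called genes of smallest FDR. Values of Hist1h2ac, Hist1h3f, Snap25, Stmn2, Asf1b, Lsm11 and members called by DESeq2 or the blocked test were added after they were seen. The members and lists were chosen with earlier results of these data known. Sequences come from GENCODE vM21 transcripts.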

Additional observations from a re-analysis of the deposited data

Results flagged for a closer look

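In 2 of 41 sets of 6 libraries examined, 1 library stood apart from the others by Dixon's criterion (the gap to its nearest neighbour over the whole range, against the 95% critical value for 6 samples), which chance alone would exceed in about 1 of 20 sets. For Hist1h3c at E14.5, the S-range minus neuron-range difference in log2(CPM + 1) was 7.19 in mutant replicate 2, where the other 5 libraries lay between 6.01 and 6.28 (gap over range 0.778). For Hist1h3a at E14.5, the S-range minus G2/M-range difference was 2.27 in control replicate 1, where the others lay between 0.99 and 1.16 (0.869). Both differences pointed the same way in all 6 libraries.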

How the results depend on the processing

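For the called members named per comparison (up to 5 per direction), 866 values were obtained under the alternatives. Of these, 831 kept their direction and side of the threshold and 35 were no longer called, and none reversed. These members have the largest changes and do not stand for all members, whose counts follow. The class and phase differences of the sum stayed positive throughout, at log2 1.76 to 2.05 and 2.10 to 2.26 (E14.5 and E18.5 class) and 0.76 to 0.86 and 0.90 to 0.96 (phase) with 1 library left out, 1.64 and 2.18 (class) and 0.83 and 0.93 (phase) in controls alone, and 2.13 and 0.80 at E14.5 with 1 Cell Ranger version; with fewer libraries the exact test could not reach 0.05. Without the replicate block, the E14.5 phase count was 4 higher and, at class limits 1.5 times higher, 16 higher and 6 lower; 1 Cell Ranger version gave 5 lower, and leaving out libraries 28 to 34 higher and 3 to 5 lower. Genotype differences of the sum at E14.5 ran from 0.37 to 0.66 (all kept) and 0.27 to 0.78 (S-range) with 1 library left out, and the others turned sign with 1 library left out at E14.5 in neuron-range cells (-0.047 to 0.11) and at E18.5 in all kept (-0.085 to 0.14), S-range (-0.14 to 0.27) and neuron-range cells (-0.093 to 0.019), and at E18.5 in all kept cells with a 10% mitochondrial limit (-0.016). With the littermate pair as a replicate block, E14.5 gave 27 higher and 3 lower (all kept) and 3 higher and 1 lower (S-range), DESeq2 5 higher in all kept cells, and no other genotype or interaction call changed. For stage in S-range cells, calls higher were 34 of 65 tested members with no low-count filter (13.5% of all genes), 4 of 63 (11.4%) with 1 Cell Ranger version and 11 to 25 with 1 library left out (2 to 5 lower); replicate numbers of different ages share only a number, and blocking on them gave 35 of 62 higher (19.7% of all genes). In neuron-range cells, stage calls were 9 higher and 2 lower of 18 members detected in 10% or more of the cells (25.6% and 24.2% of all such genes), 13 and 1 of 61 with 1 Cell Ranger version (12% and 17.2% of all genes), and 18 to 25 and 2 to 5 with 1 library left out. The cause of these shifts was not tested, other than the fewer samples or genes each setting leaves. Members under 1 CPM rest on few UMIs, and near-identical copies cannot be separated at any depth.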
